A study of Mus musculus with 282 samples.

Results

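The 9 transcripts described here carry cytokine signals in and around the liver cell. They are the chemokine gene Cxcl1, the receptor genes Il6ra, Il6st and Il1r1, the signal transducer Stat3, the transcription factor genes Cebpb and Cebpd, and the inhibitor genes Socs3 and Nfkbia. They were taken by symbol, as 9 of the 15907 genes measured in mouse liver, and each was present in both deposited tables and passed the filter on low values. Hepatic 3′ mRNA sequencing was available from 282 libraries in 16 arms, each sampled around the day at Zeitgeber time (ZT, hours after lights on). The study asked how the clock, the feeding pattern and mTOR activity shape daily gene expression in liver.

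Interleukin-6 binds its receptor chain, encoded by Il6ra, and the shared signalling chain gp130, encoded by Il6st, and Janus kinases on that complex activate STAT3. STAT3 with C/EBP beta and C/EBP delta switches on the acute phase genes of the hepatocyte, and also Socs3, whose product shuts the receptor down again. Interleukin-1 acts through Il1r1 and releases NF-kappa-B from I-kappa-B alpha, encoded by Nfkbia, which NF-kappa-B itself induces together with the neutrophil-attracting chemokine Cxcl1.

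All animals were male C57BL/6J mice or knockouts on that background as labelled, kept singly in 12 h light and 12 h dark. AZD8055, an inhibitor of the mTOR kinase, was given to arrhythmically fed wild-type mice at dawn (18 livers) or at dusk (18 livers), and arrhythmically fed wild-type mice that were not injected (18 livers) are their control. Injection and drug cannot be told apart in these comparisons, because no vehicle arm was arrhythmically fed. For the dose, the number of doses and the vehicle the sources used here give nothing, and they do not say whether livers sampled before the labelled dosing time had already been dosed. Hours are therefore counted from the nearest preceding dawn (ZT 0) or dusk (ZT 12) and are nominal. The night-fed arms were rapamycin-injected, vehicle-injected and uninjected mice of whole-body Bmal1 knockout or wild-type genotype, liver Tsc1 knockout and liver Raptor knockout mice, and Albumin-Cre mice, the control of the liver knockouts, with 18 livers each. Rapamycin blocks mTOR complex 1, Tsc1 restrains it and Raptor is one of its subunits. Uninjected wild-type mice were also fed ad libitum (18 livers). A second table held 3 wild-type arms given tunicamycin, which blocks N-glycosylation: arrhythmically fed with AZD8055 at dusk, arrhythmically fed, and night-fed, with 16 livers each. The first 13 arms were sampled at ZT 2, 6, 10, 14, 18 and 22 with 3 livers per time, and the tunicamycin arms at ZT 4, 10, 16 and 22 with 4 livers per time.

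The promoters of Socs3, Cxcl1 and Nfkbia are shown because these 3 genes were called at the first sampling time after AZD8055 in both arms and each window held a match to a STAT or NF-kappa-B motif. The windows run from 250 bases before to 50 bases after the RefSeq gene start on GRCm38.p6, 5′ to 3′ on the gene's strand, and capitals mark the motif matches. A STAT match (TTCNNNGAA, searched on both strands) lies 154 bases before the start of Socs3 at chr11:117969317-117969616 (minus strand), a start that falls inside the annotated gene.

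Socs3: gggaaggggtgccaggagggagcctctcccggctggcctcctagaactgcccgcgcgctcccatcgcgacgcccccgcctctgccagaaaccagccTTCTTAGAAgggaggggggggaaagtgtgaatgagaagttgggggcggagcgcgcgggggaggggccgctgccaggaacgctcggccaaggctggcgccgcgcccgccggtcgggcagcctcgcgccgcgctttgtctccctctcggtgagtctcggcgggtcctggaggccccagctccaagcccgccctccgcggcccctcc

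NF-kappa-B matches lie 71 and 70 bases before the start of Cxcl1 and overlap each other, at chr5:90890995-90891294 (plus strand).

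Cxcl1: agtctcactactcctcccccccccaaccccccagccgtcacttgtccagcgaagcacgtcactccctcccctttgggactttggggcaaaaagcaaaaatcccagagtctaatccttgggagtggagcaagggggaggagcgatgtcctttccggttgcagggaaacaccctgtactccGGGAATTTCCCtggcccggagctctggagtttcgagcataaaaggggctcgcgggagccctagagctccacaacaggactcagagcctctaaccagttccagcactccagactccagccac

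A single NF-kappa-B match lies 29 bases before the start of Nfkbia at chr12:55492598-55492897 (minus strand).

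Nfkbia: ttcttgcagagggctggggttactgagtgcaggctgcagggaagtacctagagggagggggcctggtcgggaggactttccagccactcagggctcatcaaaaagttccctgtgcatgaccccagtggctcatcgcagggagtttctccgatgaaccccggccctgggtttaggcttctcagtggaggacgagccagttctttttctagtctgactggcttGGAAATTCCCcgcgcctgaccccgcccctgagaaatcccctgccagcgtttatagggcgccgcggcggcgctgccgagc

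Of 32851 RefSeq promoter windows of this length, 8.298% held the STAT motif and 8.459% the NF-kappa-B motif, which is the background for these matches. The windows shown were picked for holding a match, so these shares do not test them. Windows were found for 8 of the 9 genes. The gene without one was Cebpd, which was also called at the first sampling time of both arms. Il1r1 has 2 annotated starts, with a C/EBP match (TTGCNNAA, in 10.797% of windows) 133 bases before the first and an NF-kappa-B match 232 bases before the second. No match to the 3 motifs was present in the windows of Stat3, Il6ra, Il6st and Cebpb.

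Values are in RPM (reads per M reads of the library), computed from reads recovered from the deposited scaled values, with libraries brought to a common size. The first table held 0.706 to 14.3 M reads per library (median 8.51) and the second 4.85 to 10.1 M (median 7.71). Median reads per library over the 282 libraries were 42 for Socs3, 44 for Cxcl1 and 47 for Cebpd, the genes read least, and 1278 for Stat3, the gene read most. The 3 least read genes are known with the least precision at their low times. One library each had no Socs3 and no Cebpd read. Log2 differences come from limma on log2(RPM + 0.5), with p-values adjusted by the Benjamini-Hochberg method over all genes tested and called below 0.05. They are given with their standard error, and they understate the change of genes with very low values. All 6 hepatocyte markers were read in every library, at lowest 6381 RPM for Alb, 468 RPM for Cyp2e1 and 53.8 RPM for Pck1 in the first table.

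After AZD8055 all 9 genes were higher at 1 or more times in the dawn arm, and 7 of them in the dusk arm, within hours of the labelled dosing time. Of 54 gene-by-time tests in the dawn arm, 18 were higher and 1 was lower than in uninjected livers, and of 54 in the dusk arm 13 were higher and none was lower. Another scaling shifted the direction of calls over all genes but not of these calls. Under the deposited scaling 59.4% to 83.6% of the calls at the 6 times of the dawn arm were higher, against 48.4% to 68.4% here. In the dusk arm the shares were 59.9% to 73.3%, against 34.2% to 62.4% here. At ZT 2 in the dawn arm 7 of the 9 genes were called, where 7.27% of the 12443 genes tested were called, and 7 were called at ZT 6, against 16.1% of genes tested. At ZT 10 there were 4, against 23.2%, and at ZT 14 there was 1, against 10.9%. At ZT 18 and ZT 22 there was none, against 2.05% and 1.27%, with none at an unadjusted p below 0.05 either and none by edgeR or DESeq2. In the dusk arm 5 genes were called at ZT 14, against 16.9% of genes tested, 5 at ZT 18, against 18.9%, and 2 at ZT 22, against 19.6%. None was called at ZT 2 of the dusk arm (12.2% of genes tested), 1 at ZT 6 (5.49%) and none at ZT 10 (2.42%). At an unadjusted p below 0.05 there was 1 gene at ZT 10 and none at ZT 2, and edgeR and DESeq2 called none at either time. Both arms were set against the same uninjected livers, so their values are given side by side and no overlap between them is counted. The 9 genes were chosen with earlier results of these data known, so these counts and shares do not test them as a set.

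**Figure D1:**
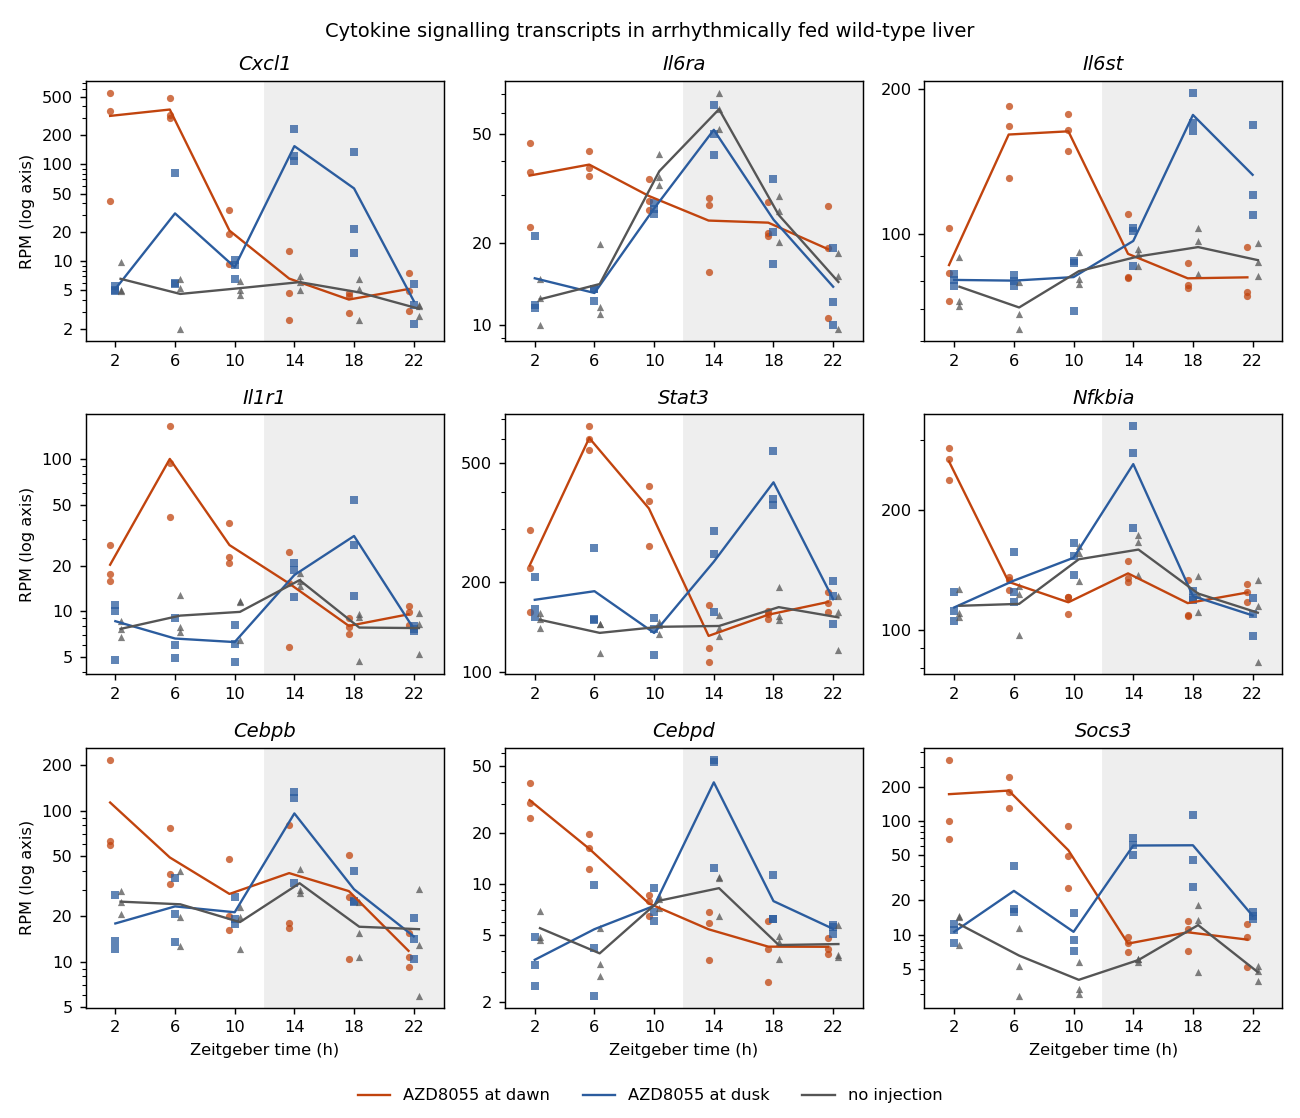
RPM of the 9 transcripts (log axis) against Zeitgeber time in arrhythmically fed wild-type livers with AZD8055 at dawn (circles), AZD8055 at dusk (squares) and no injection (triangles). Points are single livers, lines join the means of 3 livers per time, and grey marks the dark phase. Cxcl1 and Socs3 stand farthest above the uninjected livers at ZT 6 in the dawn arm and at ZT 14 in the dusk arm.

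Cxcl1 (chr5:90891245-90893121, GRCm38.p6), which encodes a chemokine that draws neutrophils, had the largest log2 differences at the first and second times of both arms. In dawn AZD8055 livers it stood at 42.1, 361 and 549 RPM at ZT 2, against 4.93, 9.79 and 4.999 RPM in uninjected livers. At ZT 6 it stood at 325, 299.8 and 483 RPM in dawn AZD8055 livers, against 6.53, 5.24 and 1.99 RPM in uninjected livers. Every dosed liver lay above every uninjected liver at both times, and 1 of the 3 dosed livers at ZT 2 was far below the other 2. The ratio of means was 48.3 at ZT 2 and 80.5 at ZT 6. The log2 differences were 4.92 ± 0.73 (SE, n = 3 per group, limma adjusted p = 9.3e-06) and 6.28 ± 0.73 (adjusted p = 2.43e-08). By ZT 10 the dawn arm was at 34.0, 9.28 and 18.9 RPM, against 4.46, 6.29 and 5.04 RPM in uninjected livers. These groups still did not overlap, but the log2 difference of 1.71 missed the threshold (adjusted p = 0.0826).

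In dusk AZD8055 livers Cxcl1 was at 123, 232 and 108 RPM at ZT 14, against 6.99, 5.06 and 6.16 RPM in uninjected livers (log2 difference 4.49 ± 0.73, adjusted p = 3.13e-05). At ZT 18 the dusk arm had 12.2, 21.6 and 136 RPM, against 2.49, 5.20 and 6.58 RPM. That difference of 2.77 ± 0.73 (adjusted p = 0.00592) was lost without replicate 3, the highest liver. At ZT 22 Cxcl1 was at 2.25, 3.54 and 5.88 RPM in dusk AZD8055 livers, against 3.56, 3.41 and 2.703 RPM in uninjected livers, and the groups overlapped. At ZT 6 one dusk-arm liver held 81.7 RPM while the other 2 held 6.00 and 5.80 RPM.

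Of 8 neutrophil markers listed, S100a8 and S100a9 were in the tables. Their summed level ran from 0.584 to 113.6 RPM (median 3.93) in the dawn arm and from 0.818 to 128.4 RPM (median 3.89) in the dusk arm, against 0.254 to 4.05 RPM (median 1.57) in uninjected livers. Both genes were higher in the daily mean of both arms. At single times they were called only at ZT 10 of the dawn arm (2.46 and 2.33), where Cxcl1 was not called. The highest sums were in the third liver of ZT 2 in the dawn arm and the second of ZT 6 in the dusk arm, which also had the highest Il1b, at 46.9 and 15.96 RPM. No uninjected arrhythmically fed liver exceeded 3.09 RPM of Il1b. Uninjected wild-type livers reached 10.02 RPM under ad libitum feeding and 5.13 RPM under night feeding. The sum of S100a8 and S100a9 reached 29.8 RPM in the ad libitum arm. Without the 2 AZD8055 livers of highest Il1b, a fit chosen after seeing the data, Cxcl1 kept its call at ZT 2 of the dawn arm. That fit takes out only 1 dosed liver of that time and is no test of cell content. The part of neutrophils in the results was not tested. In bulk tissue, more cells of a type and more RNA per cell cannot be told apart.

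The receptor genes differed at different times. Il1r1 (chr1:40222480-40316201), the signalling receptor of interleukin-1, was at 165, 41.9 and 94.8 RPM at ZT 6 in dawn AZD8055 livers, against 7.90, 7.38 and 12.9 RPM in uninjected livers. Every dosed liver lay above every uninjected one, and the log2 difference was 3.18 ± 0.41 (adjusted p = 2.68e-07). It was smaller at ZT 2, at 1.31 ± 0.41 (adjusted p = 0.0438), a call lost without any one replicate number and without the 2 livers of highest Il1b (1.47, adjusted p = 0.054). At ZT 10 it was 1.41 ± 0.41 (adjusted p = 0.0113, lost without replicate 1 or 3). In the dusk arm Il1r1 was called only at ZT 18, with 12.7, 27.5 and 53.8 RPM against 9.56, 9.22 and 4.75 RPM in uninjected livers. The log2 difference was 1.76 ± 0.41 (adjusted p = 0.00228), and the call was lost without replicate 3.

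Il6st (chr13:112464070-112506860), the gp130 chain shared by the interleukin-6 family, was not called at ZT 2 (log2 difference 0.14 ± 0.15, adjusted p = 0.629). It then held 184.5, 130.5 and 168 RPM at ZT 6 and 177, 149 and 164 RPM at ZT 10 in dawn AZD8055 livers. Uninjected livers had 68.1, 63.5 and 79.5 RPM at ZT 6 and 80.8, 78.7 and 91.6 RPM at ZT 10. No dosed liver overlapped them, and the log2 differences were 1.18 ± 0.15 (adjusted p = 1.35e-07) and 0.96 ± 0.15 (adjusted p = 5.86e-06). In the dusk arm there was likewise no call at ZT 14. At ZT 18 Il6st was at 170.5, 163 and 196.5 RPM in dusk AZD8055 livers, against 96.6, 82.5 and 103 RPM in uninjected livers (log2 difference 0.91 ± 0.15, adjusted p = 2.22e-05). The difference at ZT 22 was smaller (0.56 ± 0.15, adjusted p = 0.00628, lost without replicate 1).

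Il6ra (chr3:89869324-89913196), the chain that binds interleukin-6, has a daily course of its own, and dawn AZD8055 livers were higher at its low times and lower at its peak. At ZT 2 it was at 46.6, 36.5 and 22.9 RPM in dawn AZD8055 livers, against 10.01, 12.6 and 14.8 RPM in uninjected livers. At ZT 6 it was at 35.2, 37.6 and 43.5 RPM in dawn AZD8055 livers, against 19.8, 11.7 and 11.02 RPM in uninjected livers. The log2 differences were 1.43 ± 0.29 at ZT 2 (adjusted p = 0.00131, lost without replicate 1 or 2) and 1.47 ± 0.29 at ZT 6 (adjusted p = 0.000333). The direction turned round at ZT 14, when uninjected livers peaked. Il6ra was then at 27.6, 29.2 and 15.7 RPM in dawn AZD8055 livers, against 62.2, 52.4 and 71.0 RPM in uninjected livers. The groups did not overlap at any of the 3 times, and the log2 difference at ZT 14 was -1.38 ± 0.29 (adjusted p = 0.00171, lost without replicate 3). Under AZD8055 at dusk Il6ra was called at no time, with 49.98, 63.9 and 42.1 RPM at ZT 14, against 62.2, 52.4 and 71.0 RPM in uninjected livers, which overlapped.

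Stat3 (chr11:100886806-100939594), the transducer, had its largest difference in the second sample of both arms. In dawn AZD8055 livers it was at 223, 158 and 298 RPM at ZT 2, against 150.5, 140 and 157 RPM in uninjected livers. The groups did not overlap but the difference did not pass the test (0.56 ± 0.22, adjusted p = 0.113). At ZT 6 it was at 552, 662 and 600.4 RPM, against 144.5, 144 and 116 RPM in uninjected livers (log2 difference 2.16 ± 0.22, adjusted p = 9.61e-10). At ZT 10 it was at 419, 264 and 372 RPM in dawn AZD8055 livers, against 144, 134 and 147 RPM in uninjected livers (1.29 ± 0.22, adjusted p = 2.36e-05). The 3 dosed livers at ZT 6 lay close together, with a mean of 605 ± 55.2 RPM (SD, n = 3). In the dusk arm the largest difference was at ZT 18, with 361, 379 and 549 RPM against 153, 149 and 192 RPM in uninjected livers (1.37 ± 0.22, adjusted p = 1.47e-05). The difference at ZT 14, 0.67 ± 0.22 (adjusted p = 0.0287), was lost without replicate 2 or 3.

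The C/EBP genes were called only at the first and second times. Cebpd (chr16:15887286-15889545), whose product joins STAT3 at acute phase promoters, was at 24.5, 39.7 and 30.1 RPM at ZT 2 and 16.4, 12.4 and 19.9 RPM at ZT 6 in dawn AZD8055 livers. Uninjected livers had 6.96, 4.83 and 4.65 RPM at ZT 2 and 2.86, 5.46 and 3.34 RPM at ZT 6, with no overlap at either time. The log2 differences were 2.41 ± 0.38 (adjusted p = 2.99e-05) and 1.95 ± 0.38 (adjusted p = 0.000253), and by ZT 10 the difference was -0.06 ± 0.38 (adjusted p = 0.937). In dusk AZD8055 livers Cebpd was at 53.1, 54.6 and 12.51 RPM at ZT 14, against 6.49, 11.01 and 10.9 RPM in uninjected livers (1.80 ± 0.38, adjusted p = 0.000978, lost without replicate 1). In 1 dosed liver the level was close to that of the uninjected ones.

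Cebpb (chr2:167688915-167690432), its relative, was at 59.0, 218 and 63.1 RPM at ZT 2 in dawn AZD8055 livers, against 25.0, 29.5 and 20.6 RPM in uninjected livers. The second liver stood far above the other 2. The log2 difference of 1.90 ± 0.58 (adjusted p = 0.0355) was lost without any one replicate number. In dusk AZD8055 livers the values at ZT 14 were 134, 122 and 33.1 RPM, against 41.0, 29.8 and 28.6 RPM, which overlapped and did not pass (1.303 ± 0.58, adjusted p = 0.115).

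Of the inhibitors, Socs3 (chr11:117966079-117970336), the feedback inhibitor of the gp130 receptor, was called at the most times. In dawn AZD8055 livers it was at 69.3, 99.9 and 346 RPM at ZT 2, at 130.5, 179.7 and 243 RPM at ZT 6 and at 90.4, 25.8 and 49.2 RPM at ZT 10. Uninjected livers had 8.12, 14.5 and 14.3 RPM at ZT 2, 11.4, 5.24 and 2.89 RPM at ZT 6 and 3.31, 5.69 and 2.99 RPM at ZT 10. All dosed livers lay above all uninjected livers at these 3 times, with ratios of means of 13.9, 28.3 and 13.8. The log2 differences were 3.44 ± 0.49, 4.87 ± 0.49 and 3.50 ± 0.49 (adjusted p = 5.23e-06, 9.61e-10 and 9.84e-07). In dusk AZD8055 livers Socs3 was at 71.1, 49.98 and 60.9 RPM at ZT 14, against 5.72, 6.14 and 6.05 RPM in uninjected livers (log2 difference 3.23 ± 0.49, adjusted p = 1.17e-05). It was at 26.2, 44.8 and 112 RPM at ZT 18, against 4.71, 13.5 and 18.1 RPM (2.21 ± 0.49, adjusted p = 0.00121). At ZT 22 the dusk arm held 14.4, 13.6 and 15.8 RPM, against 4.75, 5.31 and 3.94 RPM, a difference of 1.55 (adjusted p = 0.0211) that was lost without any one replicate number. A call at ZT 6 of the dusk arm, 1.87 (adjusted p = 0.0169), was lost without replicate 2 or 3 and was 1.44 without the livers of highest Il1b (adjusted p = 0.112).

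Nfkbia (chr12:55489409-55492647), the inhibitor of NF-kappa-B, was called only at the first sampling time of each arm. It was at 238, 287 and 270 RPM at ZT 2 in dawn AZD8055 livers, against 108, 110.3 and 126 RPM in uninjected livers. At ZT 6 it was at 126, 136 and 133.5 RPM in dawn AZD8055 livers, against 97.0, 128.5 and 123 RPM in uninjected livers. The groups were apart at the first time and overlapped at the second, with log2 differences of 1.203 ± 0.16 (adjusted p = 1.13e-06) and 0.19 ± 0.16 (adjusted p = 0.436). Nfkbia was at 325, 278 and 180 RPM at ZT 14 in dusk AZD8055 livers, against 137, 166.5 and 173 RPM in uninjected livers (0.68 ± 0.16, adjusted p = 0.00235, lost without replicate 1 or 2). At ZT 18 it was at 125, 119 and 120.2 RPM in dusk AZD8055 livers, against 136, 122.5 and 111 RPM in uninjected livers.

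**Figure D2:**
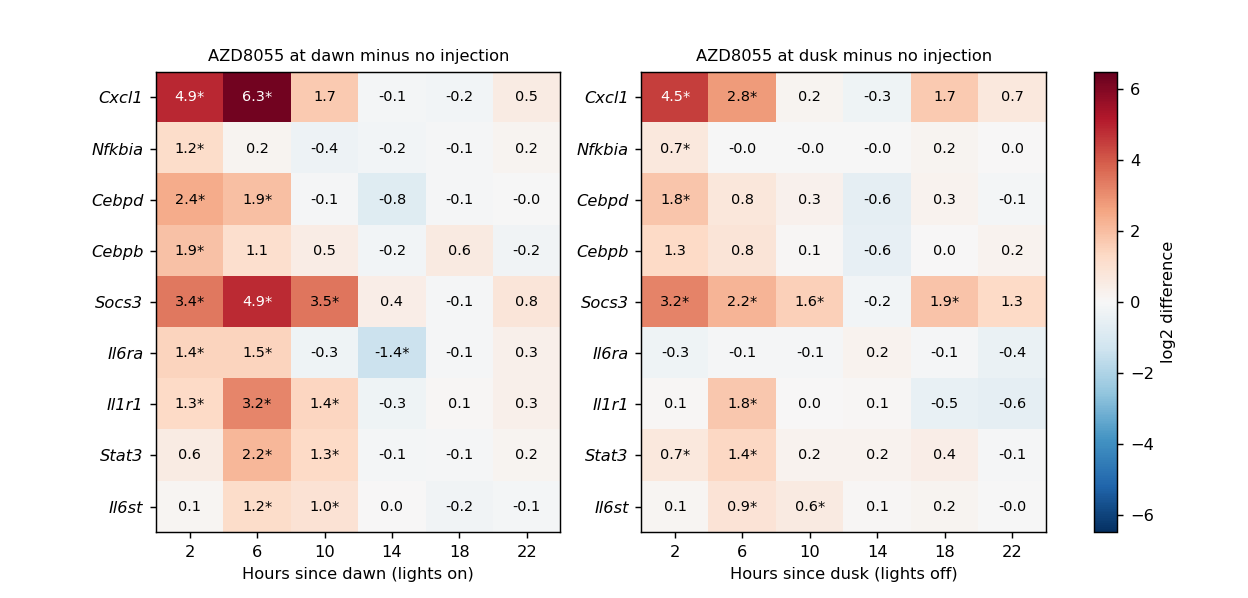
Log2 difference of each transcript between AZD8055 livers and uninjected livers, for the dawn arm (left) and the dusk arm (right), against nominal hours since dawn or dusk. Colour and printed number give the difference, and an asterisk marks an adjusted p below 0.05. Cxcl1, Nfkbia, Cebpd and Socs3 were called in the first column of both panels, and Il6st first in the second column of both.

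The order within the response was tested as the difference of the AZD8055 effect at the first and the second sampling time. In the dawn arm Nfkbia had the larger effect at the first time, ZT 2, by 1.01 ± 0.22 (log2, adjusted p = 0.00634). Stat3 and Il6st had the larger effect at the second, ZT 6 (first minus second -1.61 ± 0.31 and -1.04 ± 0.21, adjusted p = 0.00134 and 0.00237). These 3 of 9 genes were called where 1.94% of genes tested were. In the dusk arm Il6st was again larger at the second time, ZT 18 (-0.81 ± 0.21, adjusted p = 0.0168), 1 of 9 genes against 4.24% of genes tested. Nfkbia (0.69 ± 0.22, adjusted p = 0.0642) and Il1r1 (-1.68 ± 0.59, adjusted p = 0.0987) had the sign of the dawn arm without passing. For Cxcl1, Socs3, Cebpb, Cebpd and Il6ra no order between these times was called in either arm, and 4 h between samples sets the limit of what can be ordered. Over all alternatives the dawn arm values were -1.82 to -1.40 for Stat3, -1.16 to -0.92 for Il6st and 0.88 to 1.15 for Nfkbia. With 1 replicate number left out of every arm, at least 1 fit lost each of these calls (adjusted p up to 0.0831, 0.171 and 0.179). The Il6st call in the dusk arm was lost in each such fit (adjusted p up to 0.272).

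Dawn and dusk effects were compared at matched hours, and no difference was called. None of 27 tests passed, although 12 had an unadjusted p below 0.05. Of all genes tested 0.0%, 0.257% and 0.691% were called at 2, 6 and 10 h, and at 10 h 24.4% of those calls were higher, against 34.8% under DESeq2 size factors. Of the 27 tests edgeR called none and DESeq2 3, Il6ra at 2 and 6 h and Stat3 at 10 h. The largest differences, dawn minus dusk, were 3.51 ± 1.03 for Cxcl1 and 2.65 ± 0.69 for Socs3 at 6 h (adjusted p = 0.125 and 0.0812). Il6ra at 2 h differed by 1.69 ± 0.41 (adjusted p = 0.189) and Stat3 at 10 h by 1.08 ± 0.31 (adjusted p = 0.0744). Without the 2 livers of highest Il1b, Socs3 at 6 h (2.66, adjusted p = 0.0431) and Stat3 at 10 h (1.11, adjusted p = 0.0394) passed.

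Averaged over the day, 8 of the 9 genes were higher in dawn AZD8055 livers, all but Il6ra. Of genes tested 41.0% were called, 20.8% as higher. Of the calls 50.8% were higher, and 67.4% under the deposited scaling. Socs3 and Cxcl1 had the largest differences, 2.17 ± 0.20 and 2.19 ± 0.30 on the log2 scale (n = 18 per group, adjusted p = 2.15e-11 and 1.38e-07). In dusk AZD8055 livers 5 of 9 were higher, Socs3, Stat3, Il6st, Cebpd and Cxcl1. Of genes tested 50.7% were called, 26.8% as higher. Of the calls 52.9% were higher, and 63.5% under the deposited scaling. The call of Cebpd (0.40, adjusted p = 0.0289) was lost without the livers of highest Il1b (0.32, adjusted p = 0.074) and without replicate 1 or 2. In the dawn arm Cebpb, Cebpd and Nfkbia were each lost without at least 1 replicate number, with adjusted p up to 0.304, 0.0816 and 0.184.

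Other genes of these pathways were read from lists. Of 24 acute phase genes, 23 were higher and none was lower in the daily mean of each AZD8055 arm. The medians were 2.18 and 2.10 on the log2 scale in the dawn and the dusk arm, beside medians over all genes of 0.01 and 0.02. The serum amyloid gene Saa1 ran from 478.5 to 14810 RPM in dawn AZD8055 livers and from 620.5 to 13690 RPM in dusk AZD8055 livers, against 18.4 to 60.7 RPM in uninjected livers. Saa1 and Saa2 are close copies whose reads may be shared. Acute phase genes were still called late in the day: at ZT 18 and ZT 22 of the dawn arm 18 and 13 of the 24 were higher and none of the 9, where 1.08% and 0.868% of all genes tested were higher.

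Over all genes tested, 20.8% were higher and 20.2% lower in the daily mean of the dawn arm, and 26.8% higher and 23.9% lower in that of the dusk arm. The counts of each list are to be read against these shares. Among 15 STAT and SOCS genes tested, 5 were higher and 4 lower in the daily mean of the dawn arm and 3 higher and 4 lower in that of the dusk arm. Socs2, an inhibitor of growth hormone signalling, was higher at ZT 6 of the dawn arm (3.64 ± 0.58, adjusted p = 1.4e-05). Among 24 interleukin-1, TNF and NF-kappa-B genes 9 were higher and 4 lower in the dawn arm, and 6 higher and 5 lower in the dusk arm. The TNF receptor gene Tnfrsf1a was higher in both (0.73 ± 0.06 and 0.58 ± 0.06, adjusted p = 2.23e-12 and 5.65e-10). Bcl3, a nuclear partner of NF-kappa-B, was higher at ZT 6 of the dawn arm and ZT 18 of the dusk arm (2.34 ± 0.40 and 2.46 ± 0.40, adjusted p = 3.81e-05 and 2.14e-05).

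Among 7 gp130 family receptor and kinase genes 2 were higher and 1 lower in the dawn arm, and 3 higher and 1 lower in the dusk arm. Osmr, the oncostatin M receptor, was higher in both (1.03 ± 0.15 and 0.46 ± 0.15, adjusted p = 7.37e-07 and 0.0121). Of 12 chemokine genes beside Cxcl1, 2 were higher and 2 lower in the dawn arm and 2 higher and 3 lower in the dusk arm. The monocyte chemokine Ccl6 was higher (1.36 ± 0.19 and 1.09 ± 0.19, adjusted p = 3.42e-07 and 9.33e-06). The interferon-induced Cxcl9 was lower (-1.87 ± 0.20 and -2.06 ± 0.20, adjusted p = 1.14e-09 and 6.07e-11). Of 5 ligand genes tested 1 was higher and 1 lower in the dawn arm and 2 were lower in the dusk arm. Of 4 further C/EBP family genes 1 was higher and 1 lower in the dawn arm and 1 was lower in the dusk arm. Il6, Tnf, Osm and Lif were listed as ligands but were not among the genes with values, with or without tunicamycin. Kupffer cell markers, the resident macrophages, summed to 237 to 548 RPM in the dawn arm and 237 to 546 RPM in the dusk arm, against 226 to 389 RPM in uninjected livers. Of 11 markers 4 and 6 were higher in the daily mean, beside 20.8% and 26.8% of all genes, and their part in the results was not tested. Markers of other cells moved both ways in the daily mean. Endothelial Pecam1 (0.59 and 0.71) and Clec4g (0.315 and 0.365) were higher. Stab2 was higher in the dusk arm (0.312), and Oit3 was lower in the dawn arm (-0.38). Stellate cell Ecm1 was higher (0.243 and 0.259). Dcn was higher (0.157) and Reln lower (-0.184) in the dawn arm, and Lrat was lower in the dusk arm (-0.445). Hepatocyte Apoa1 was lower (-0.38 and -0.35) and Serpinc1 higher (0.12 and 0.14), and Alb was lower in the dusk arm (-0.35). Lymphocyte Trbc2 was lower in the dawn arm (-0.68). The part of these cells was not tested either.

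The comparisons of Bmal1 knockout, rapamycin and vehicle share their libraries, as do the feeding comparisons. Both liver knockout comparisons share the Albumin-Cre livers. Each comparison is thus given by its own values. Uninjected night-fed wild-type livers are the reference of both feeding comparisons, of uninjected Bmal1 knockout and of vehicle in wild type. These comparisons are therefore not independent of each other.

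**Figure D3:**
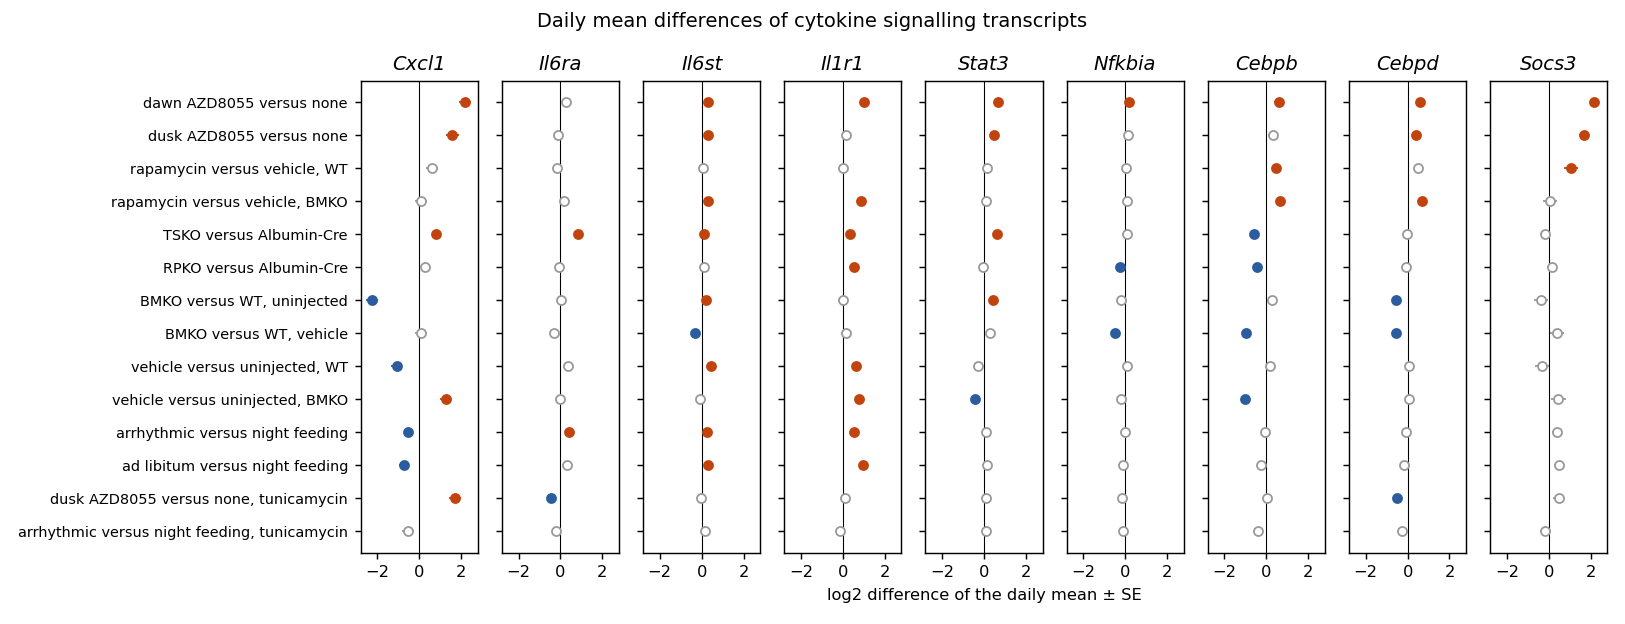
Log2 difference of the daily mean (x axis, points with SE bars) of the 9 transcripts in 14 comparisons, one per line with its groups named. Points are filled red where higher and blue where lower at an adjusted p below 0.05 and open otherwise. The 2 AZD8055 comparisons without tunicamycin hold the largest Socs3 differences, 2.17 and 1.66, and the largest drop is that of Cxcl1 in uninjected Bmal1 knockout livers, -2.27.

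Cxcl1 was lower without the clock gene Bmal1 in uninjected livers. It ran from 0.141 to 4.87 RPM (median 1.19) in uninjected Bmal1 knockout livers, against 3.86 to 12.4 RPM (median 7.60) in uninjected wild-type livers, with some overlap. The log2 difference was -2.27 ± 0.28 (n = 18 per group, adjusted p = 3.13e-11). In vehicle-injected livers the difference did not pass: 0.710 to 33.4 RPM (median 2.33) in Bmal1 knockout, against 0.886 to 5.90 RPM (median 3.27) in wild type, 0.08 ± 0.28 (adjusted p = 0.879). The difference between these genotype effects, vehicle minus uninjected, was 2.35 ± 0.39 (adjusted p = 5.36e-07, one of 3 of the 9 genes called, where 57.1% of genes tested were). Uninjected Bmal1 knockout livers also had higher Stat3 (0.44 ± 0.12) and Il6st (0.22 ± 0.08) and lower Cebpd (-0.57 ± 0.19), 4 of 9 genes called against 71.7% of genes tested. The other 3 of these were lost without replicate 2 (adjusted p up to 0.0659, 0.51 and 0.0547 over the alternatives). In vehicle-injected livers Cebpb (-0.96 ± 0.17, adjusted p = 3.66e-06), Cebpd (-0.57 ± 0.19), Nfkbia (-0.49 ± 0.11) and Il6st (-0.33 ± 0.08) were lower in the knockout, 4 of 9 against 21.7%. Cebpd was lost without replicate 2 or 3, Nfkbia without replicate 3, and both under the deposited scaling (adjusted p up to 0.254 and 0.228). Under the deposited scaling the median over all genes moved by 0.32 in the vehicle comparison. There 93.5% of calls were then higher, against 45.7% here, and Il6st stood at 0.013 (adjusted p = 0.886), so its direction depends on the scaling. For the difference of genotype effects the median moved by 0.39 and 77.7% of calls were higher, against 50.2% here. The other 2 genes called there were Cebpb (-1.21) and Il6st (-0.55), and Il6st was lost under the deposited scaling (adjusted p = 0.257). Markers of several cell types moved with genotype in uninjected livers. Of 6 hepatocyte markers 2 were higher (Apoa1 1.65, Serpinc1 0.53) and 1 lower (Alb -1.92). Of 11 Kupffer cell markers 2 were higher and 7 lower, among them Vsig4 (-1.54), Timd4 (-0.89) and Adgre1 (-0.76), with summed levels of 130.5 to 462 RPM in Bmal1 knockout livers, against 139.6 to 450.1 RPM in wild-type livers. The neutrophil gene S100a9 (-0.81) and Il1b (-1.33), the ligand of Il1r1, were lower too. The sum of S100a8 and S100a9 ran from 0 to 3.14 RPM in Bmal1 knockout livers, against 0.853 to 4.30 RPM in wild-type livers. Of 6 sinusoidal endothelial markers 1 was higher and 4 lower, with a median sum of 149 RPM in the knockout livers, against 213 RPM in the wild-type livers. Over all genes 34.3% were higher and 37.5% lower, and the part of these cells in the results was not tested.

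In vehicle-injected wild-type livers Il6st (0.46 ± 0.08, adjusted p = 5.95e-06) and Il1r1 (0.63 ± 0.20) were higher and Cxcl1 lower (-1.08 ± 0.28, adjusted p = 0.00209) than in uninjected livers, 3 of 9 genes against 27.3% of genes tested. Cxcl1 was lost without replicate 1 or 2 and Il1r1 without replicate 2 or 3 (adjusted p up to 0.0695 and 0.191). In vehicle-injected Bmal1 knockout livers Cxcl1 (1.26 ± 0.28, adjusted p = 6.84e-05) and Il1r1 (0.78 ± 0.20) were higher and Cebpb (-1.04 ± 0.17, adjusted p = 1.35e-07) and Stat3 (-0.43 ± 0.12) lower than in uninjected ones, 4 of 9 against 60.4%. Il1r1 and Stat3 were lost without replicate 2 (adjusted p up to 0.0895 and 0.289). Cell markers moved both ways in the same comparison, with 31.3% of all genes higher and 29.0% lower. Of the hepatocyte markers Apoa1 (-1.13) and Serpinc1 (-0.27) were lower. Of the stellate cell markers Ecm1 (-1.002) was lower, and Dcn (0.85) and Lrat (0.87) were higher. S100a9 (1.32), S100a8 (0.89) and Il1b (1.29) were higher, and S100a8 and S100a9 summed to 0.825 to 26.3 RPM in vehicle-injected livers, against 0 to 3.14 RPM in uninjected livers. Of 11 Kupffer cell markers 5 were higher and 2 lower, with Vsig4 (1.41) and Cd5l (0.75) among the higher ones. The 11 markers summed to 157 to 618 RPM in vehicle-injected livers, against 130.5 to 462 RPM in uninjected livers. Of 6 sinusoidal endothelial markers 5 were higher and none lower. The part of these cells in the results was not tested. Under the deposited scaling the median over all genes moved by -0.12 in wild type, with 26.8% of calls higher against 56.6% here, and by 0.27 in Bmal1 knockout, with 75.8% against 51.9%.

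Rapamycin-injected wild-type livers had higher Socs3, at 2.14 to 24.3 RPM (median 8.33), against 0.633 to 18.6 RPM (median 4.29) in vehicle livers. The ranges overlapped widely (log2 difference 1.04 ± 0.34, adjusted p = 0.0216, lost without replicate 1 or 2). Cebpb was also higher (0.46 ± 0.17, adjusted p = 0.0435, lost without any one replicate number), 2 of 9 genes against 18.5% of genes tested. The rapamycin arm of wild type held the shallowest library, with 0.706 M reads and 2 reads of Socs3. Without libraries under 3 M reads 1 gene was called in place of 2. Saa1 ran from 8.95 to 10010 RPM (median 31.6) in rapamycin livers, against 33.6 to 1491 RPM (median 54.9) in vehicle livers. In Bmal1 knockout livers rapamycin was accompanied by higher Cebpb (0.66 ± 0.17, adjusted p = 0.00461), Cebpd (0.67 ± 0.19, adjusted p = 0.0123), Il6st (0.29 ± 0.08, adjusted p = 0.00787) and Il1r1. Il1r1 was at 12.1 to 64.9 RPM (median 19.7) in rapamycin livers, against 3.17 to 40.1 RPM (median 10.4) in vehicle livers (0.86 ± 0.20, adjusted p = 0.00178). These were 4 of 9 against 11.9%, and each was lost without at least 1 replicate number (adjusted p up to 0.106, 0.14, 0.123 and 0.115). The Il1r1 response was larger in Bmal1 knockout than in wild type by 0.85 ± 0.28 (adjusted p = 0.033, 1 of 9 against 14.2%), a call lost without replicate 1 or 3 and under edgeR (adjusted p up to 0.648). Stellate cell markers summed to 321 to 531 RPM (median 416) in rapamycin-injected Bmal1 knockout livers, against 249 to 342 RPM (median 297) with vehicle. In wild type they summed to 206 to 453 RPM (median 372), against 276 to 429 RPM (median 336). Dcn, a large part of these sums (mean 211.7 RPM over the first table), was higher in the knockout (0.566). Its response exceeded that in wild type by 0.734. Ecm1 was higher in both genotypes (0.565 in the knockout and 0.439 in wild type). Endothelial Lyve1 and Stab2 were lower in both genotypes (-0.665 and -0.348 in the knockout, -0.761 and -0.365 in wild type). Kdr was higher in the knockout (0.248) and Clec4g lower in wild type (-0.296). Kupffer cell Marco was lower in the knockout (-1.055) and in wild type (-1.618). In wild type Vsig4 (-0.596), S100a8 (-0.665) and S100a9 (-0.624) were lower as well. Their part in the results was not tested.

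Liver Tsc1 knockout livers had higher Il6ra and Stat3. Il6ra ran from 20.3 to 83.5 RPM (median 42.7) in Tsc1 knockout livers, against 8.43 to 67.7 RPM (median 22.7) in Albumin-Cre livers, a difference of 0.84 ± 0.09 on the log2 scale (n = 18 per group, adjusted p = 4.9e-10). Stat3 ran from 130 to 191 RPM (median 156) against 81.0 to 139 RPM (median 101), with little overlap (0.64 ± 0.07, adjusted p = 3.74e-10). Cxcl1 (0.80 ± 0.18), Il1r1 (0.35 ± 0.10) and Il6st (0.13 ± 0.05) were higher and Cebpb lower (-0.59 ± 0.19), 6 of 9 genes against 36.5% of the 12296 genes tested. Cebpb was lost without replicate 1, Il6st without replicate 2 or 3 and Il1r1 without replicate 3 (adjusted p up to 0.53, 0.428 and 0.138). In liver Raptor knockout, which removes the complex that Tsc1 restrains, Il1r1 was higher (0.55 ± 0.10, adjusted p = 9.74e-06) and Cebpb (-0.45 ± 0.19, adjusted p = 0.0474) and Nfkbia (-0.24 ± 0.06, adjusted p = 0.000592) lower, 3 of 9 against 42.4%. Cebpb was lost without replicate 1 or 3 and Nfkbia without replicate 3 (adjusted p up to 0.285 and 0.0662). Stat3 and Il6ra differed by -0.05 and -0.07. Il1r1 was higher and Cebpb lower in both liver knockouts, which share the Albumin-Cre reference. Mean Il1r1 was 11.4 RPM in Albumin-Cre, 16.75 RPM in Raptor knockout and 14.2 RPM in Tsc1 knockout livers. Mean Cebpb was 27.6, 19.7 and 19.1 RPM in the same order. Whether these differences come from the knockouts or from the reference arm was not tested. Under the deposited scaling the median over all genes moved by -0.22 for Raptor knockout. Of its calls 12.1% were then higher, against 45.6% here, and 7 of the 9 genes were called. In Tsc1 knockout endothelial Pecam1 (-0.847) and Kupffer cell C1qa (-0.459) were lower and endothelial Stab2 (0.692) higher. In Raptor knockout Pecam1 (0.51), Kupffer cell Adgre1 (0.483), C1qa (0.411) and C1qb (0.343) and the neutrophil gene S100a8 (0.585) were higher. Endothelial Lyve1 (-0.839) and Oit3 (-0.361) were lower there. The part of these cells in the results was not tested.

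In arrhythmically fed livers Il6ra (0.41 ± 0.13), Il6st (0.27 ± 0.06) and Il1r1 (0.52 ± 0.16) were higher and Cxcl1 lower (-0.53 ± 0.20, adjusted p = 0.028) than in night-fed livers, 4 of 9 genes against 44.0% of genes tested. Il6ra and Il1r1 were lost without replicate 2 and Cxcl1 without replicate 1 or 3 (adjusted p up to 0.225, 0.107 and 0.151). In ad libitum fed livers Il6st (0.32 ± 0.06) and Il1r1 (0.95 ± 0.16) were higher and Cxcl1 lower (-0.75 ± 0.20, adjusted p = 0.00161), 3 of 9 against 52.9%. Saa1 stood beside these at 18.4 to 60.7 RPM in arrhythmically fed livers, against 136 to 344 RPM in night-fed livers. Kupffer cell Csf1r was higher under arrhythmic (0.637) and ad libitum feeding (1.012). Endothelial Stab2 (-0.344 and -0.332) and Pecam1 (-0.393 and -0.229) were lower. The part of these cells in the results was not tested. The night-fed wild-type arm, the reference here, had the lowest mean of the 13 arms for Il6st (69.5 RPM) and Il1r1 (6.70 RPM). Night-fed Albumin-Cre livers had 84.5 and 11.4 RPM, and arrhythmically fed livers 84.0 and 9.79 RPM. Mean Cxcl1 was 7.41 RPM in the reference arm, 4.35 RPM in Albumin-Cre and 5.08 RPM in arrhythmically fed livers. Whether these differences come from feeding or from the reference arm was not tested.

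Il6ra was called rhythmic in the most arms. A 24 h cosine passed in 13 of 16 arms for Il6ra, in 10 for Nfkbia, 8 for Il1r1, 7 for Cebpd, 5 for Stat3, 4 for Cebpb and for Il6st, 3 for Cxcl1 and 2 for Socs3. By arm, all 9 passed in dusk AZD8055 livers (19.6% of genes tested) and 8 in dawn AZD8055 livers (20.9%). In these AZD8055 arms several genes rose within hours of the labelled dosing time and fell back. A cosine over the sampled day cannot tell such a passing response from a repeating rhythm. There were 5 in liver Raptor knockout (17.5%) and in vehicle-injected wild type (14.9%). There were 4 in liver Tsc1 knockout (24.3%), rapamycin-injected wild type (5.08%), AZD8055 with tunicamycin livers (21.2%) and night-fed tunicamycin livers (15.0%). There were 3 in uninjected wild type under arrhythmic (7.92%) and ad libitum feeding (16.4%), and 2 in night-fed wild type (21.8%), Albumin-Cre (23.2%) and vehicle-injected Bmal1 knockout (5.48%). There was 1 in arrhythmically fed tunicamycin livers (7.52%). There was none in uninjected (5.54%) or rapamycin-injected Bmal1 knockout livers (0.273%), where limma gave 5 and 4 at an unadjusted p below 0.05 and edgeR called 1 and 0. Il6ra peaked near the light to dark change, at ZT 12.78 with a log2 amplitude of 0.85 ± 0.14 in night-fed wild-type livers (adjusted p = 0.000581). It peaked at ZT 13.51 with 1.14 ± 0.10 under arrhythmic feeding and at ZT 14.02 with 1.05 ± 0.13 under ad libitum feeding. With AZD8055 at dusk it peaked at ZT 13.79 (0.90 ± 0.11), and with AZD8055 at dawn at ZT 6.47 with 0.45 ± 0.12 (adjusted p = 0.0386). It did not pass in uninjected and rapamycin-injected Bmal1 knockout livers or in arrhythmically fed tunicamycin livers.

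**Figure D4:**
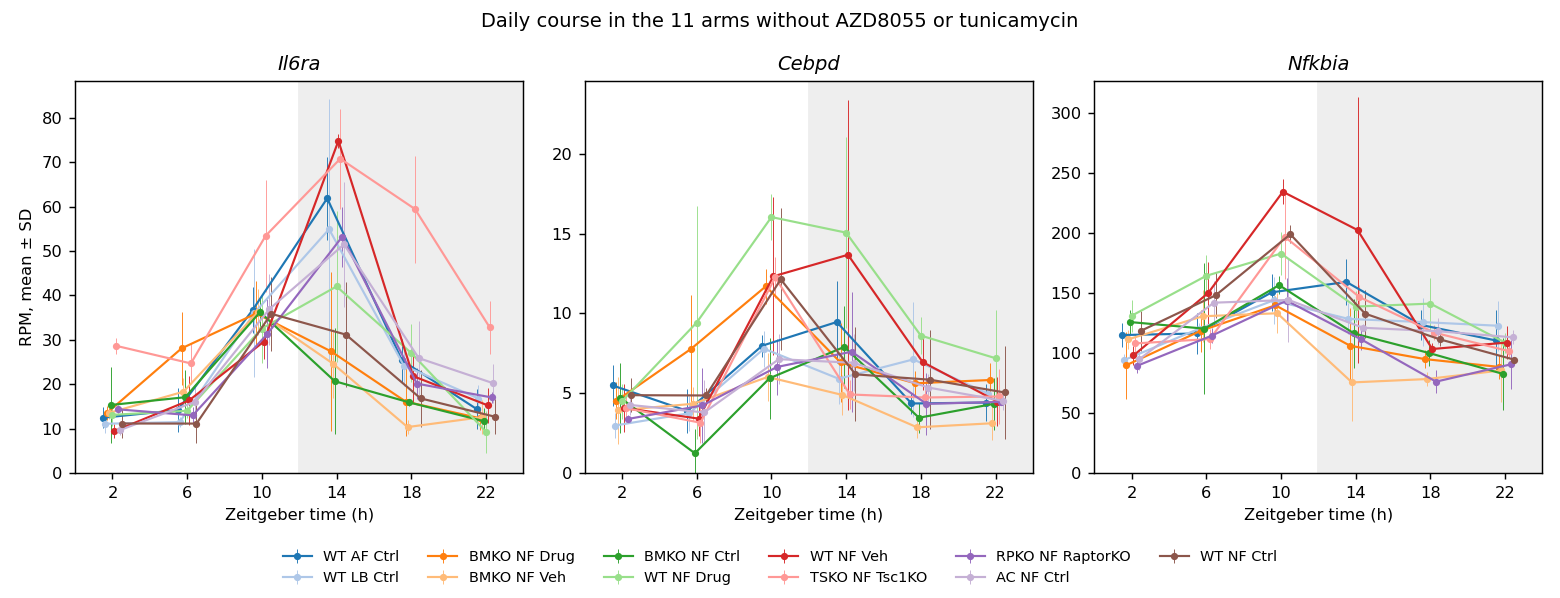
Mean RPM ± SD (3 livers per time) of Il6ra, Cebpd and Nfkbia against Zeitgeber time in the arms without AZD8055 or tunicamycin, with the dark phase in grey. Abbreviations are AF, arrhythmic; LB, ad libitum; NF, night feeding; BMKO, Bmal1 knockout; TSKO, liver Tsc1 knockout; RPKO, liver Raptor knockout; AC, Albumin-Cre; Drug, rapamycin; Veh, vehicle; Ctrl, uninjected. The mean of Il6ra is highest at ZT 10 or 14 in each arm.

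Nfkbia peaked at ZT 12.42 in arrhythmically fed wild-type livers (amplitude 0.27 ± 0.07, adjusted p = 0.0401), against ZT 9.42 in night-fed ones (0.46 ± 0.06, adjusted p = 4.18e-05). The difference of these rhythms was called (0.33 ± 0.08, adjusted p = 0.0432, 1 of 9 genes against 4.62% of genes tested), a call lost without any one replicate number. Between uninjected Bmal1 knockout and wild-type livers no rhythm difference was called by limma or edgeR (3.05% of genes tested), with 3 of 9 at an unadjusted p below 0.05. Socs3 peaked at ZT 5.33 and Stat3 at ZT 6.30 in the dawn arm, and at ZT 15.86 and ZT 17.96 in the dusk arm. These fitted peaks fall within hours of the labelled dosing time of each arm, so they do not show a repeating rhythm.

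Under tunicamycin, livers given AZD8055 at dusk were compared with arrhythmically fed livers without it. In the daily mean Cxcl1 was higher (1.70 ± 0.28, n = 16 per group, adjusted p = 4e-05) and Cebpd (-0.52 ± 0.12, adjusted p = 0.00476) and Il6ra (-0.46 ± 0.13, adjusted p = 0.0151) were lower, 3 of 9 genes against 8.85% of the 12261 genes tested. Il6ra was lost without replicate 1 or 2 (adjusted p up to 0.127). At ZT 4 Cxcl1 was at 54.2, 74.7, 39.0 and 35.3 RPM in AZD8055 with tunicamycin livers, against 9.87, 9.61, 4.90 and 1.85 RPM in tunicamycin livers. These did not overlap (3.02 ± 0.56, adjusted p = 0.0035, 1 of 9 against 0.383%). At ZT 10 it was at 14.2, 43.5, 113 and 16.2 RPM with AZD8055, against 6.79, 14.6, 4.92 and 2.91 RPM without. The lowest dosed liver lay within the other group (2.31, adjusted p = 0.0338, 1 of 9 against 0.628%, lost without any one replicate number). At ZT 16 and ZT 22 no gene was called by limma (1.88% and 1.81% of genes tested), with 5 and 4 at an unadjusted p below 0.05.

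Socs3 was not higher in the daily mean there (0.48 ± 0.26, adjusted p = 0.262), although its libraries did not overlap at ZT 4 or ZT 16. At ZT 4 it was at 7.34, 5.39, 5.06 and 11.4 RPM in AZD8055 with tunicamycin livers, against 2.60, 2.69, 2.39 and 1.23 RPM in tunicamycin livers. At ZT 16 it was at 16.4, 9.93, 15.4 and 7.19 RPM with AZD8055, against 5.42, 4.07, 5.25 and 5.52 RPM without. Il1r1 at ZT 16 was likewise apart, at 136, 107, 98.9 and 59.95 RPM with AZD8055, against 34.3, 55.0, 51.1 and 30.0 RPM without. It missed the threshold (1.21, adjusted p = 0.0593, edgeR adjusted p = 0.0499 and DESeq2 adjusted p = 0.0395). Of the 24 acute phase genes 20 were higher and none lower in the daily mean, with a median of 0.95 beside -0.01 over all genes. The neutrophil genes S100a8 and S100a9 summed to 1.38 to 23.8 RPM (median 7.98) in AZD8055 with tunicamycin livers, against 0.358 to 5.77 RPM (median 3.21) in tunicamycin livers, and their part in the Cxcl1 difference was not tested. Between arrhythmically fed and night-fed tunicamycin livers none of the 9 was called (0.555% of genes tested) by limma, edgeR or DESeq2, with 2 at an unadjusted p below 0.05. In these livers 1 night-fed liver at ZT 16 held 58.9 RPM of Socs3, against 3.13 to 4.83 RPM in the other 3.

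**Figure D5:**
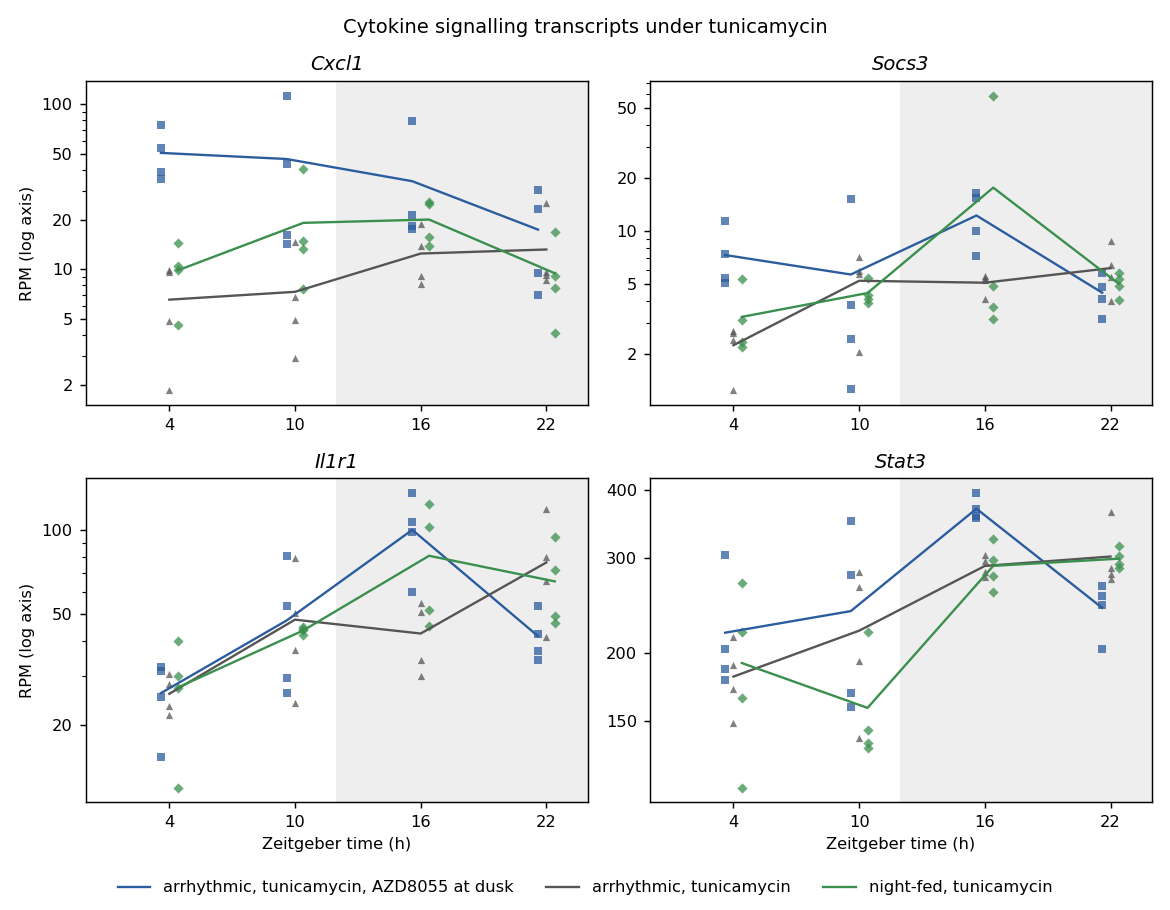
RPM (log axis) of Cxcl1, Socs3, Il1r1 and Stat3 against Zeitgeber time in tunicamycin-treated wild-type livers with arrhythmic feeding and AZD8055 at dusk (squares), arrhythmic feeding (triangles) and night feeding (diamonds). Points are single livers, lines join the means of 4, and grey marks the dark phase. Cxcl1 of the AZD8055 livers lies above both other groups at ZT 4, at 35.3 RPM or more.

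Ordered by mean level over the day, the dawn AZD8055 arm was the highest of the 13 arms of the first table for Cxcl1, Il6st, Il1r1, Stat3, Cebpb and Socs3. The highest was the dusk AZD8055 arm for Cebpd, liver Tsc1 knockout for Il6ra and vehicle-injected wild type for Nfkbia. Most neighbours in these orders were closer than the spread between livers of one time. Of 12 neighbouring pairs per gene the gap passed the larger SD in 1 pair for Socs3, Il6ra and Cxcl1 each, and in none for the other 6 genes. For Socs3 it was the dusk AZD8055 arm at 30.3 RPM above rapamycin-injected wild type at 10.4 RPM. For Il6ra it was liver Tsc1 knockout at 45.0 RPM above the dawn AZD8055 arm at 28.5 RPM. For Cxcl1 it was vehicle-injected wild type at 3.48 RPM above uninjected Bmal1 knockout at 1.37 RPM. For Cxcl1 the order began with the dawn AZD8055 arm at 120.5 ± 112 RPM and the dusk AZD8055 arm at 43.3 ± 43.3 RPM (mean ± SD within time, n = 18), followed by liver Tsc1 knockout at 7.78 ± 3.13 RPM.

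Across the 78 arm and time means of the first table, the transcripts whose log2 level ran most like each gene's were, by Pearson r, Cxcl1 (0.815), H3f3b (0.809) and Steap4 (0.768) for Socs3. They were H3f3b (0.847), Socs3 (0.815) and Junb (0.779) for Cxcl1. For Cebpd they were Pim3 (0.845), Slc38a2 (0.777) and Map3k5 (0.773), and for Cebpb Maff (0.731), Pim3 (0.727) and Cebpd (0.681). Stat3 ran most like Tnfrsf1a (0.765), Ptpn1 (0.743) and Prkar1a (0.703), and Nfkbia most like Foxo3 (0.776), Angptl4 (0.769) and Gne (0.765). Il6ra ran with Lpin1 (0.813), Map3k5 (0.773) and Rad54l2 (0.772), Il6st with Slc39a14 (0.689), Irak1bp1 (0.677) and Lepr (0.666), and Il1r1 with Scara5 (0.733), Egfr (0.719) and Snx10 (0.710). The means share their libraries and their scaling, and they include the AZD8055 times. Among the 9 genes themselves Stat3 and Il6ra were the least alike (0.01).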

How the data were processed

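Hepatic RNA was sequenced with QuantSeq 3′ FWD libraries, per the labels' protocols, and the submitters' processing notes name STAR 2.7.3a, SAMtools and the mouse build GRCm38.p6 (mm10). Of the counting program, annotation and normalization the sources used here say nothing. The deposited tables hold a signal per gene and library, read counts divided by 1 factor per library, in 2 tables that were normalized separately, so tests were made within a table. Whole reads were recovered from the steps of these values within 0.01 read, for 99.91% of values of the first and 100% of the second table. Off step were 197 genes in the liver Raptor knockout arm, none of the 9 described, and 7 genes had none in the second table. Because the deposited unit is not raw counts, count models were alternatives only.

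Reads were rescaled by TMM (edgeR 4.0.16) to RPM. Genes averaging 1 RPM or more were tested with limma 3.58.1 (trend, R 4.3.3) on log2(RPM + 0.5) with 1 mean per arm and time, and p-values were adjusted over all genes tested. Fits pooled the arms of 1 question, that is the 3 arrhythmic AZD8055 arms, the feeding arms, the 6 Bmal1 knockout and wild-type arms, the liver knockouts with their control, and the tunicamycin arms. Rhythms were fitted in each arm alone. The script was tested on simulated data. Tables and figures used Python 3.11.15, pandas 2.3.3, numpy 2.4.6 and matplotlib 3.10.9.

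The 9 genes and the lists were chosen with earlier results of these data known. All 9 are named in every comparison. Of the other pathway lists up to 3 genes with the smallest adjusted p past the threshold are named per comparison, a selection of which is printed. The 3 genes of highest Pearson r over the 78 group means are also named for each of the 9. The differences of genotype effects and of rapamycin responses, and the fits without the libraries of highest Il1b or without 1 night-fed tunicamycin liver, were chosen after seeing the data. Other alternatives were DESeq2 size factors, the deposited scaling, no filter, pseudocounts 0.1 and 2, a replicate block, a joint fit, each replicate number left out, libraries under 3 M reads left out, edgeR, and DESeq2 1.42.0 on recovered reads. The replicate numbers did not pair the samples in any of 14 comparisons. Labels describe replicates as biological.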

Additional observations from a re-analysis of the deposited data

Results flagged for a closer look

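Single livers stood far from the other 3 of their group, by a gap over Dixon's 95% critical value of 0.829 for 4 samples, in 8 of 108 groups tested; chance alone flags about 1 in 20 groups. All are tunicamycin livers, since groups of 3 were not tested. Socs3 was at 58.9 RPM in 1 night-fed liver at ZT 16, where the other 3 held 3.13 to 4.83 RPM. In arrhythmically fed livers Socs3 was at 1.23 RPM in 1 liver at ZT 4, against 2.39 to 2.69 RPM in the others, and at 4.07 RPM in 1 liver at ZT 16, against 5.25 to 5.52 RPM. Stat3 was at 364 RPM in 1 arrhythmically fed liver at ZT 22, against 274 to 287 RPM in the others, and at 219 RPM in 1 night-fed liver at ZT 10, against 134 to 145 RPM. Cxcl1 was at 79.5 RPM in 1 liver with AZD8055 at ZT 16, against 17.5 to 21.5 RPM in the others, and at 25.3 RPM in 1 arrhythmically fed liver at ZT 22, against 8.65 to 9.6 RPM. Il6st was at 119 RPM in 1 liver with AZD8055 at ZT 16, against 139 to 142 RPM in the others.

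Effects that differed between groups by a test of the difference were those of Bmal1 knockout in vehicle-injected minus uninjected livers for Cxcl1 (2.35), Cebpb (-1.21) and Il6st (-0.55), and the rapamycin response of Il1r1 in Bmal1 knockout minus wild-type livers (0.85), all on the log2 scale with limma.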

How the results depend on the processing

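Of 152 called values of the 9 genes, 1885 alternatives were computed. Direction and call held in 1694, and the direction without the call in 190. The direction reversed in 1, Il6st in Bmal1 knockout against wild type with vehicle under the deposited scaling (0.013). The number of the 9 genes called changed by over 1.5 times as follows. Ad libitum feeding gave 5 in place of 3 with the replicate block and with edgeR, and rapamycin in wild type 1 in place of 2 with DESeq2 size factors, the deposited scaling, DESeq2 and without shallow libraries. Vehicle in wild type gave 5 in place of 3 in the joint fit, and liver Raptor knockout 7 in place of 3 under the deposited scaling. Dawn minus dusk gave 2 in place of 0 without the livers of highest Il1b and 3 with DESeq2. First minus second time in the dusk arm gave 2 in place of 1 with DESeq2 size factors, the deposited scaling, edgeR and without those livers, and 3 with DESeq2. The rhythm difference by feeding gave 0 in place of 1 with no filter and in the joint fit. The tunicamycin times gave 4 in place of 2 with the replicate block, and 6 with DESeq2 or without 1 night-fed liver. The cause was not tested. The replicate numbers share only a number, and the block changed no other of these counts by that much.

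Leaving out each replicate number gave 2 to 3 of the 9 genes for arrhythmic feeding, 3 to 6 for ad libitum feeding, and 1 to 5 for Bmal1 knockout uninjected. It gave 0 to 2 for rapamycin in wild type, 1 to 3 in Bmal1 knockout, 1 to 3 for vehicle in wild type, 2 to 6 in Bmal1 knockout and 1 to 3 for liver Raptor knockout. It gave 8 to 9 for the dusk times, and 0 to 2 and 0 to 1 for first minus second time in the dawn and the dusk arm. It gave 26 to 41 for rhythms in the 13 arms, in place of 47, 0 to 0 and 0 to 1 for the rhythm differences by feeding and genotype, and 1 to 2 for the tunicamycin times. Counts over all genes moved by over 1.5 times in 123 of 174 such fits and in 45 of 516 others. Examples are 7059 in place of 2699 for Bmal1 knockout with vehicle under the deposited scaling and 180 in place of 683 at ZT 6 of the dusk arm without the livers of highest Il1b. DESeq2 was not run for rhythms. Reads were fewest for Socs3, Cxcl1 and Cebpd, which limits their differences at low times most.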
